A study of Mus musculus with 2 samples.

Results

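Expression of 40 interferon-stimulated genes (ISGs) was examined in granulocyte-monocyte progenitors (GMPs), the bone marrow progenitors from which granulocytes, monocytes and tumor-induced myeloid-derived suppressor cells arise. The genes were chosen by symbol from a list of canonical ISGs, and all 40 were found among the 24421 gene symbols measured. RNA-seq was done on GMPs of female non-tumor-bearing mice (NTB-GMP, 1 library) and of female mice with orthotopic implants of 4T1 cells, a line derived from a mouse mammary carcinoma (4T1-GMP, 1 library). The labels give both groups the same F1 semi-syngeneic (H-2b/d) background and name no drug, deletion or transgene. GMPs were sorted by flow cytometry, and neither the age of the mice nor the number of mice per library is given in the labels. The study's methods describe young adult females and BALB/c hosts for 4T1, which differs from the labelled F1 background, and the labels are followed here. The comparison addresses how a tumor alters the progenitors from which suppressor cells develop.

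Interferons are secreted proteins that alert cells to infection. Type I interferons signal through the receptor chains IFNAR1 and IFNAR2 and the kinases JAK1 and TYK2 to transcription factors of the STAT and IRF families, which bind the interferon-stimulated response element (ISRE) in the promoters of ISGs, whereas interferon gamma acts mainly through the gamma-activated site (GAS). The products of ISGs sense viral nucleic acids, block viral entry and replication, present antigens and damp the response itself. Stem and progenitor cells are known to keep some ISGs on without infection.

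With 1 library per group there was no replicate error and no test of tumor against control, so every difference below compares these libraries. Levels are RPKM, reads per kilobase of gene scaled to the library size. Ratios compare 4T1-GMP with NTB-GMP as log2(RPKM + 0.1), positive where 4T1-GMP was higher, so that differences of low genes are understated. The deposited RPKM carried enough digits to recover whole reads. These reads are lower bounds for some genes, whose intervals are then too wide. Intervals are 95% Clopper-Pearson intervals on these reads without a pseudocount and cover counting error only, since reads amplified by PCR without molecular identifiers are not independent molecules. The library sizes implied by the RPKM were 10180365 for NTB-GMP against 30016263 for 4T1-GMP, a ratio of 2.95. These sizes did not come out whole, so they may be scaled sizes and not read totals, and the reads recovered over all genes, which are lower bounds, summed to 9486697 and 26353075. Low genes were measured less precisely in NTB-GMP. The ribosomal RNA precursor Rn45s took 17.0% and 6.98% of the implied sizes, respectively, and leaving it out would shift every log2 ratio of RPKM by -0.16, so that genes between 0 and 0.16 change direction under that scaling. In bulk RNA, fewer cells of a type and less RNA per cell cannot be told apart.

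All 40 ISGs had reads in both libraries. At least 3 reads, the amount taken here as detected, were found for 38 ISGs in NTB-GMP and 37 in 4T1-GMP. Below this limit were Ifit1 in NTB-GMP, Usp18 and Mx2 in 4T1-GMP, and Ifit3 in both. Levels spread from 0.0492 RPKM for Ifit3 to 186 RPKM for Ifitm2 in NTB-GMP, with a median of 4.95, and from 0.0137 RPKM for Mx2 to 250 RPKM for Ifitm2 in 4T1-GMP, with a median of 3.69. At least 1 RPKM was reached by 29 ISGs in NTB-GMP and 26 in 4T1-GMP. Ifitm1, Ifitm2 and Ifitm3 together made up 47.5% of the summed RPKM of the 40 genes in NTB-GMP and 62.8% in 4T1-GMP. GMPs of both groups thus had abundant Ifitm transcripts beside sparse transcripts of Ifit1, Ifit3, Rsad2, Mx1 and Mx2, which are among the genes that interferon induces most strongly.

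**Figure D1:**
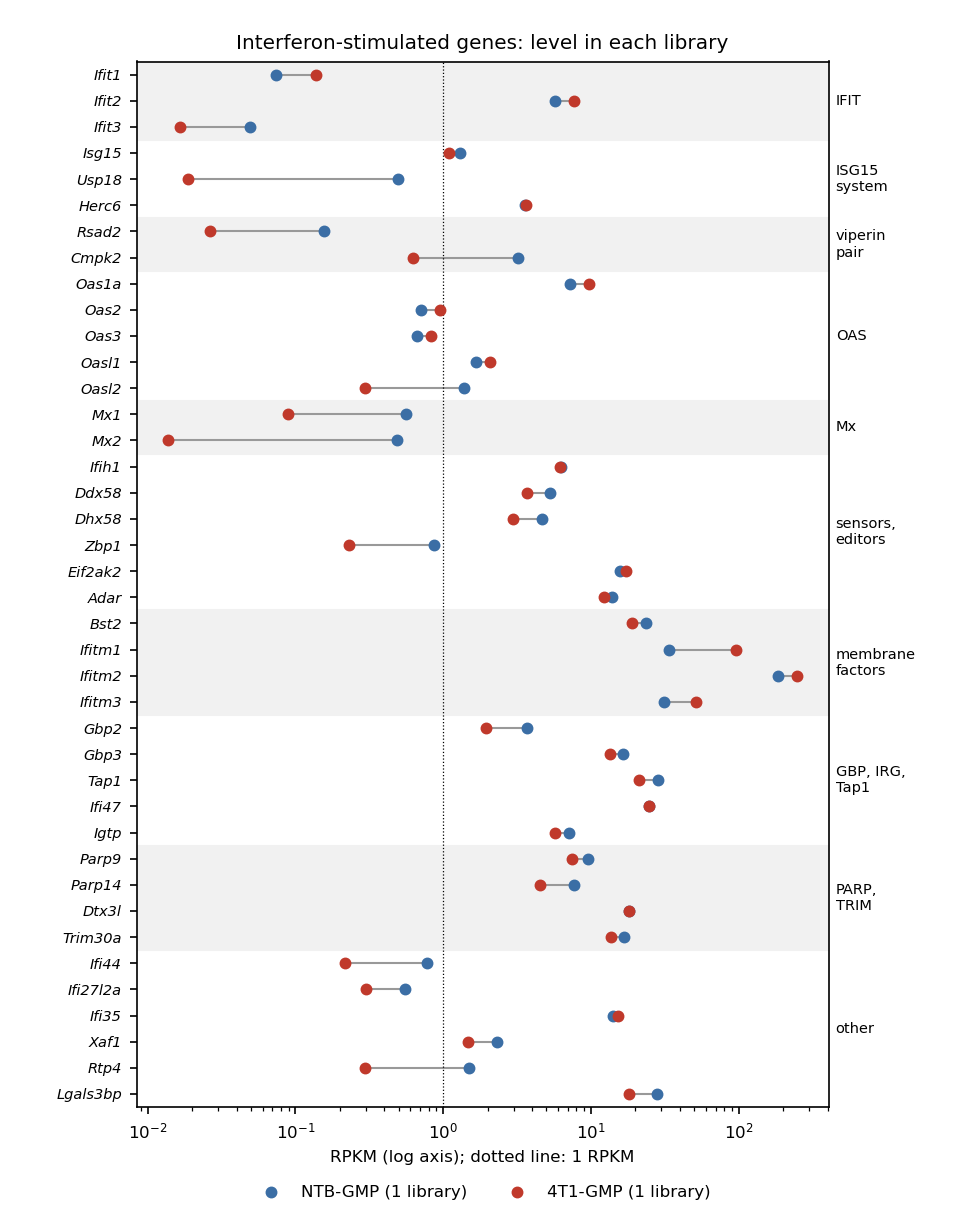
Level of each of the 40 ISGs in NTB-GMP (blue) and 4T1-GMP (red), 1 library each, as RPKM on a log axis, with the genes grouped by role. Mx2 runs from 0.486 RPKM in NTB-GMP to 0.0137 RPKM in 4T1-GMP, whereas Ifi47 has 24.7 and 24.8 RPKM and its points coincide.

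Among the 27 ISGs with a mean of at least 1 RPKM over both libraries, 16 were lower, beside 45.3% of all genes at that level, and 11 were higher in 4T1-GMP, with a median log2 ratio of -0.22 and an interquartile range from -0.45 to 0.12. Over all 10378 genes with that level, the median was 0.05 and 54.7% were higher. Of the 27 ISGs, 40.7% were higher, or 22.2% when Rn45s was removed from the library sizes, against 39.2% of all genes under the same scaling. Only Cmpk2 was at least 2-fold lower, where 4.92% of all genes were, and only Ifitm1 was at least 2-fold higher, where 3.25% of all genes were. These shares put the counts of 1 in 27 in either direction near the background.

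The 13 ISGs under a mean of 1 RPKM stood apart from the others in fold. Of these, 10 were lower in 4T1-GMP and 8 were at least 2-fold lower, namely Usp18, Rsad2, Oasl2, Mx1, Mx2, Zbp1, Ifi44 and Rtp4, and their median log2 ratio was -1.46. Of all 4455 genes in that range, 16.5% were at least 2-fold lower, and their median was -0.16. Within the narrower range from 0.1 to under 1 RPKM, the count was 7 of 11 ISGs beside 27.5% of all genes, and none of the 11 was at least 2-fold higher, as 14.4% of all genes were. Over all 40 ISGs, 26 were lower beside 48.6% of all 14833 genes above 0. Of the 40, 9 were at least 2-fold lower beside 8.4% of all 14833 genes above 0, and 1 was at least 2-fold higher beside 4.95%, or 3.51% of all genes with an interval over 0 as well. The intervals of all 9 lay under 0, as did those of 6.78% of all genes in addition to the 2-fold difference. Such differences rest on few reads. With a pseudocount of 1 RPKM, Cmpk2 kept a log2 ratio of -1.37, and the other 8 ran from -0.17 for Rsad2 to -0.95 for Rtp4.

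**Figure D2:**
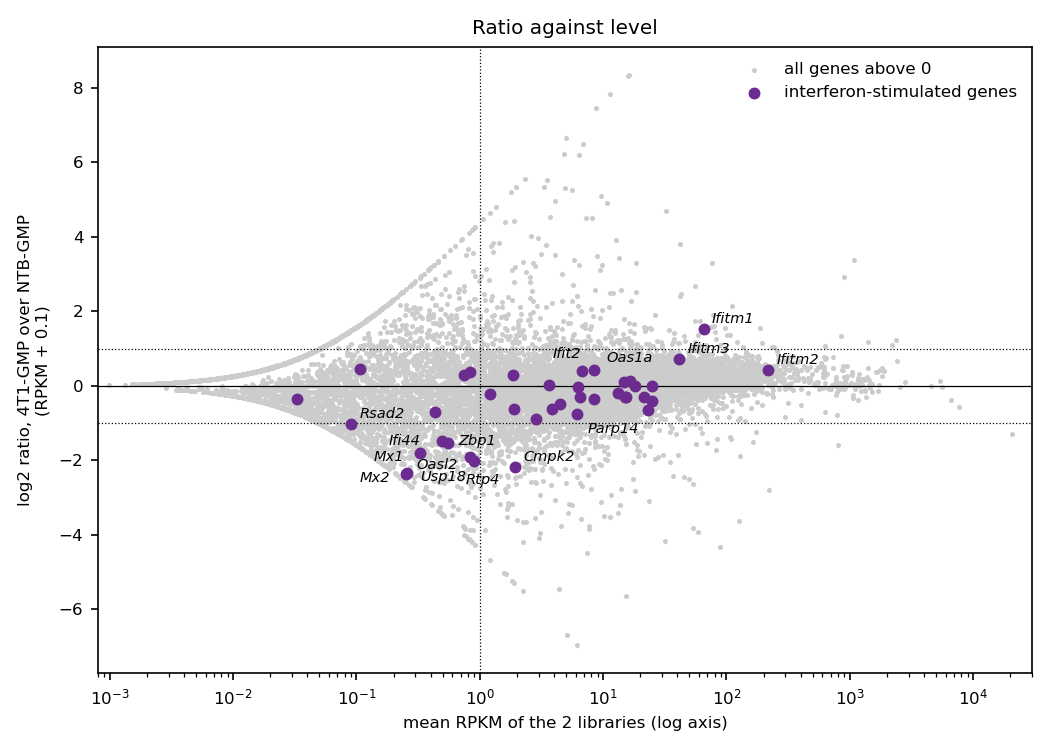
Log2 ratio of 4T1-GMP over NTB-GMP (RPKM + 0.1) against the mean RPKM of both libraries on a log axis, for the 40 ISGs (purple) and all 14833 genes above 0 (gray), with dotted lines at 2-fold and at 1 RPKM. The ISGs under 1 RPKM reach down to -2.37 (Mx2), and the abundant Ifitm1, Ifitm2 and Ifitm3 lie above 0 at 1.52, 0.42 and 0.73.

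For 26 of the 40 ISGs the difference between the libraries was larger than counting error. Intervals lay under 0 for 20 ISGs, beside 24.3% of all genes above 0, and over 0 for 6 ISGs, beside 27.1%. For the other 14 ISGs the interval included 0, which does not show that their levels were the same. The fit gave gene lengths of 177 bases for Oasl1, 272 for Ifi35, 383 for Bst2 and 402 for Dhx58, where the recovered reads may be too few. Too few reads widen an interval, so some of the 14 may differ by more than counting error. The 3 Ifitm genes were all higher, so leaving them out lowers the median and raises the share that is lower by construction. Without them, 16 of 24 ISGs with a mean of at least 1 RPKM were lower, beside 45.3% of all genes at that level. The median log2 ratio of the 24 was -0.29, where that of all genes at that level was 0.05.

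**Figure D3:**
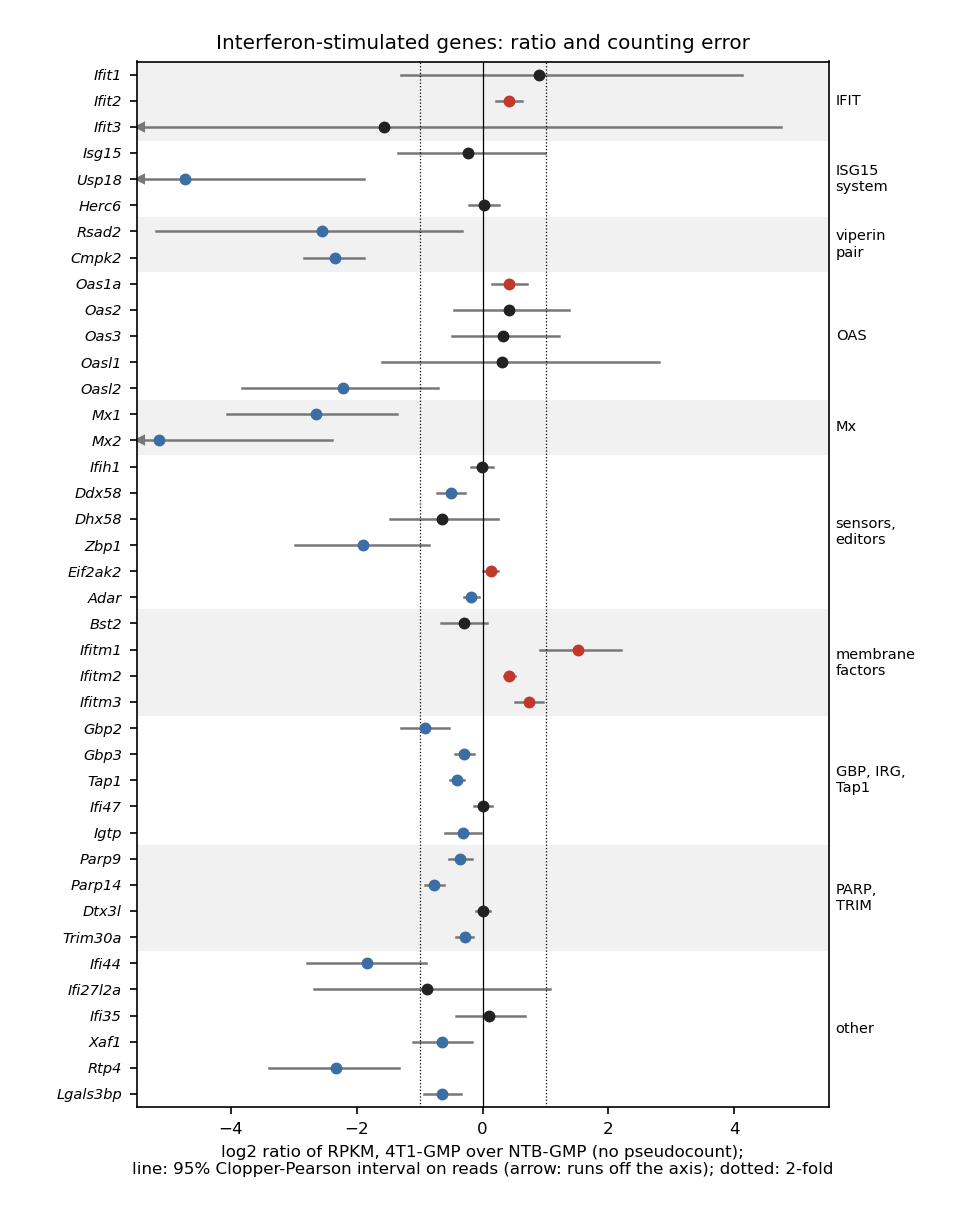
Log2 ratio of RPKM of 4T1-GMP over NTB-GMP without a pseudocount for the 40 ISGs grouped by role, with 95% Clopper-Pearson intervals on the recovered reads as lines, which cover counting error only. Intervals under 0 (blue points, 20 genes) include those of Mx1, Mx2, Cmpk2 and Rsad2, intervals over 0 (red points, 6 genes) include those of Ifitm1, Ifitm2 and Ifitm3, and 14 intervals include 0 (black points).

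The viperin pair was among the groups that differed most. Cmpk2 encodes a mitochondrial nucleotide kinase, and Rsad2 encodes viperin, the enzyme that makes a chain-terminating nucleotide from CTP. Cmpk2 had 3.20 RPKM in NTB-GMP (at least 104 reads) against 0.627 RPKM in 4T1-GMP (at least 60 reads), a log2 ratio of -2.18 (interval -2.84 to -1.88). Rsad2 was sparse in both libraries, with 0.156 RPKM from at least 6 reads in NTB-GMP against 0.0264 RPKM from at least 3 reads in 4T1-GMP, a log2 ratio of -1.02 (interval -5.19 to -0.33). Thus both genes were lower in 4T1-GMP, and Rsad2 rested on very few reads. They are neighbors on chromosome 12 of GRCm38, where GENCODE M21 places Rsad2 from 26442746 to 26456452 on the minus strand and Cmpk2 from 26469204 to 26479837 on the plus strand, 12751 bases apart and transcribed away from each other. Their promoters, taken from RefSeq on GRCm38.p6 as 250 bases before and 50 after the start, are shown because the pair was lower together, with matches to the ISRE core in capitals. The core was taken as GAAA, any 2 bases and GAAA, or its reverse complement TTTC, any 2 bases and TTTC.
Rsad2, chr12:26456403-26456702, minus strand: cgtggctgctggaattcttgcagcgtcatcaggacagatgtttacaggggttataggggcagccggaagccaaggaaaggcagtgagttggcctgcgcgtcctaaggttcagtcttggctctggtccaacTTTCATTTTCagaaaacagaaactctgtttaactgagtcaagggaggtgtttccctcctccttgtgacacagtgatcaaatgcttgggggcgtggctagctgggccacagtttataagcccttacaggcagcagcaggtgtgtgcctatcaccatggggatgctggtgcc
Cmpk2, chr12:26468965-26469264, plus strand: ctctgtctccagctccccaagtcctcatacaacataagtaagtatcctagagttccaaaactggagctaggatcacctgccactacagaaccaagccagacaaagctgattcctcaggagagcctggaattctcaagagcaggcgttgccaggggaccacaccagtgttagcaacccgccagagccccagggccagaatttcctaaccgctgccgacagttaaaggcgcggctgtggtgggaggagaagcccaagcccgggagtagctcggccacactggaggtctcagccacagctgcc
The Rsad2 window held 1 match and the Cmpk2 window had no match to these letters.

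ISRE letters were common in the promoters of the set. Of the 40 ISGs, 30 had a RefSeq promoter window, and 16 of these (53.3%) held this core on either strand, compared with 3.91% of 17233 genes in the files with a window. The GAS core, taken as TTC, any 3 bases and GAA, which reads the same on both strands, was found in 8 of the 30 (26.7%) and in 9.27% of the 17233 genes. The motifs overlapped in 2 of the 35 windows of the set and in 24 of all 32851 windows. Windows were not found for Usp18, Oas2, Mx1, Mx2, Ifi27l2a, Dhx58, Rtp4, Parp9, Parp14 and Zbp1. The 16 ISGs with an ISRE match had a median log2 ratio of -0.25, with 10 lower and 6 higher in 4T1-GMP, and the 14 without one had a median of -0.09, with 7 lower and 7 higher. At least 2-fold lower were 1 of the 16 (Rsad2) and 3 of the 14 (Cmpk2, Oasl2 and Ifi44), beside 8.4% of all genes above 0. ISRE letters were thus present in promoters of genes that were lower and of genes that were higher.

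The ISG15 system tags proteins with the ubiquitin-like modifier ISG15. Isg15 itself had 1.30 RPKM in NTB-GMP against 1.10 RPKM in 4T1-GMP, from at least 10 and 25 reads, a log2 ratio of -0.22 with an interval from -1.35 to 0.98. Herc6, the main mouse ligase for ISG15, had 3.61 and 3.66 RPKM (log2 ratio 0.02). Usp18, which removes ISG15 and inhibits IFNAR2, had 0.499 RPKM from at least 9 reads in NTB-GMP against 0.0188 RPKM from a recovered count of 1 read in 4T1-GMP. The ratio of NTB-GMP over 4T1-GMP was 26.5 for Usp18 (interval 3.68 to 1163). The modifier and its ligase had intervals that included 0, while the protease that reverses the tag was lower in 4T1-GMP. The promoter of Isg15, a standard example of an ISRE, held 3 overlapping matches, in capitals.
Isg15, chr4:156200769-156201068, minus strand: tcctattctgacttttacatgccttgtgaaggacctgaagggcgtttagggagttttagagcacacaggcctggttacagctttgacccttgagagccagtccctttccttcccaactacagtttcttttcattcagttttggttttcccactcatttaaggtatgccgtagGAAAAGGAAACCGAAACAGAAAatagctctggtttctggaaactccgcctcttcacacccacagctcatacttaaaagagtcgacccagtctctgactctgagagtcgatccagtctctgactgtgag

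The IFIT proteins bind viral RNA and block its translation. Ifit2 had 5.72 RPKM in NTB-GMP against 7.63 RPKM in 4T1-GMP, a log2 ratio of 0.41 (interval 0.21 to 0.63), from at least 230 and 905 reads. Ifit1 had 0.0745 and 0.139 RPKM from 2 and 11 reads or more, and Ifit3 had 0.0492 and 0.0167 RPKM from a recovered count of 1 read in each library. Ifit3 has a close copy, Ifit3b, so its reads may have been split or dropped in counting. The 3 genes lie together on chromosome 19, with 7111 bases between Ifit2 and Ifit3 and 52139 bases between Ifit3 and Ifit1, yet only Ifit2 was above 1 RPKM. The promoters of the sparse pair each held 2 ISRE matches, the first of which are shown with the matched letters in capitals.
Ifit1, chr19:34640775-34640804, plus strand: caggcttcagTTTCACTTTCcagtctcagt
Ifit3, chr19:34583363-34583392, plus strand: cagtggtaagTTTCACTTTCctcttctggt
The windows of Ifit2 held no match.

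The OAS family makes the 2-5A messenger that activates RNase L. Higher RPKM in 4T1-GMP was found for 4 of its 5 genes, beside 51.4% of all genes above 0. However, only the interval of Oas1a lay over 0, as did those of 27.1% of all genes. Oas1a had 7.18 RPKM in NTB-GMP against 9.65 RPKM in 4T1-GMP, a log2 ratio of 0.42 (interval 0.16 to 0.71). Oas2 had 0.712 and 0.948 RPKM, Oas3 had 0.666 and 0.833 RPKM, and Oasl1, a regulator of Irf7 translation that lacks the enzyme activity, had 1.66 and 2.07 RPKM. Oasl2 went the other way, with 1.38 RPKM from at least 11 reads in NTB-GMP against 0.297 RPKM from at least 7 reads in 4T1-GMP, a log2 ratio of -1.90 (interval -3.82 to -0.71). Oasl1 and Oasl2 lie 11005 bases apart on chromosome 5. Oas1a has close copies such as Oas1g, which had 2.04 and 2.29 RPKM. The Oas1a promoter held 2 ISRE matches near its start, the second of which is shown.
Oas1a, chr5:120907520-120907549, minus strand: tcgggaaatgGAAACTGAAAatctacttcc

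Both Mx genes, which encode dynamin-like GTPases that trap viral ribonucleoproteins, were lower in 4T1-GMP. Mx1 had 0.561 RPKM from at least 17 reads in NTB-GMP against 0.0896 RPKM from at least 8 reads in 4T1-GMP, a log2 ratio of -1.80 (interval -4.07 to -1.36). Mx2 had 0.486 RPKM from at least 12 reads in NTB-GMP against 0.0137 RPKM from a recovered count of 1 read in 4T1-GMP, a ratio of NTB-GMP over 4T1-GMP of 35.4 (interval 5.24 to 1512). The genes lie 72400 bases apart on chromosome 16. Many laboratory mouse strains carry defective Mx alleles, and GENCODE M21 lists Mx2 as a polymorphic pseudogene, so these values are transcript levels only.

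Ifih1 and Ddx58 encode MDA5 and RIG-I, which detect viral RNA, and Dhx58 encodes their regulator LGP2. Ifih1 had 6.26 RPKM in NTB-GMP against 6.20 RPKM in 4T1-GMP, a log2 ratio of -0.01 (interval -0.19 to 0.16). Ddx58 was lower, with 5.27 and 3.71 RPKM (log2 ratio -0.49, interval -0.72 to -0.29), and Dhx58 had 4.64 and 2.98 RPKM with an interval that included 0 (-1.48 to 0.25). Zbp1, a sensor of Z-form nucleic acids that triggers cell death, had 0.863 RPKM from at least 19 reads in NTB-GMP against 0.231 RPKM from at least 15 reads in 4T1-GMP, a log2 ratio of -1.54 (interval -2.98 to -0.85). Adar, the RNA-editing enzyme that marks RNA as self, had 13.9 and 12.3 RPKM (log2 ratio -0.18, interval -0.29 to -0.06). Eif2ak2, which encodes the kinase PKR, had 15.8 and 17.3 RPKM (log2 ratio 0.13, interval 0.00 to 0.25), and turned to -0.04 when Rn45s was removed from the library sizes. Of these 6 genes, only the sparse Zbp1 was 2-fold lower, beside 8.4% of all genes above 0.

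Of the 4 membrane restriction factors, the 3 Ifitm genes were higher in 4T1-GMP and Bst2 had a lower RPKM. IFITM proteins block fusion of viruses with endosomes and the cell surface, and tetherin, encoded by Bst2, holds budding virions at the cell. Ifitm1 had 33.7 RPKM in NTB-GMP against 96.6 RPKM in 4T1-GMP, a log2 ratio of 1.52 (interval 0.91 to 2.20). Ifitm2, the most abundant ISG in both libraries, had 186 and 250 RPKM (log2 ratio 0.42, interval 0.33 to 0.52), and Ifitm3 had 31.1 and 51.5 RPKM (log2 ratio 0.73, interval 0.51 to 0.95). Their log2 ratios remained over 0 when Rn45s was removed from the library sizes (1.35, 0.26 and 0.56) and after quantile normalization (1.35, 0.17 and 0.58). Bst2 had 23.6 and 19.1 RPKM, with an interval that included 0 (-0.66 to 0.07). Ifitm2, Ifitm1 and Ifitm3 lie in this order on chromosome 7, 11233 and 39760 bases apart. They have similar sequences, so reads shared between them may have been split or dropped. The Ifitm1 window, shown whole because this gene alone was at least 2-fold higher, had no ISRE match. GENCODE M21 starts Ifitm1 at 140967221, upstream of this RefSeq window, so the sequence around that start was not searched. The windows of the neighbors of Ifitm1 held 1 match (Ifitm2) and 2 matches (Ifitm3). The Ifitm2 match and 1 of the Ifitm3 matches are shown in capitals.
Ifitm1, chr7:140967826-140968125, plus strand: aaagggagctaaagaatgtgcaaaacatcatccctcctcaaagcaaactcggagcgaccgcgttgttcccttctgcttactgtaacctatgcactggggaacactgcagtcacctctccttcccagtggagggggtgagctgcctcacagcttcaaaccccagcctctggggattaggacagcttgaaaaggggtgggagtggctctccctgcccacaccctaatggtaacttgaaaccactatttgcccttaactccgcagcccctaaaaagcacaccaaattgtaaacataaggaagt
Ifitm2, chr7:140955988-140956017, minus strand: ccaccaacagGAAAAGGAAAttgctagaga
Ifitm3, chr7:141010706-141010735, minus strand: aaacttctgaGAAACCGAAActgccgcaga

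The GTPases and the peptide transporter that respond mainly to interferon gamma were mostly lower by less than 2-fold. GBP proteins and the immunity-related GTPases encoded by Ifi47 and Igtp attack the vacuoles of intracellular microbes, and TAP1 carries peptides to MHC class I. Gbp2 had 3.72 RPKM in NTB-GMP against 1.968 RPKM in 4T1-GMP, a log2 ratio of -0.89 (interval -1.30 to -0.53). Tap1 had 28.3 and 21.3 RPKM (-0.41, interval -0.53 to -0.29), Gbp3 had 16.6 and 13.5 RPKM (-0.29, interval -0.45 to -0.14) and Igtp had 7.14 and 5.75 RPKM (-0.31, interval -0.59 to -0.02). Ifi47 had 24.7 and 24.8 RPKM, a log2 ratio of 0.01. Thus 4 of these 5 genes had intervals under 0, beside 24.3% of all genes above 0. None was 2-fold lower, where 4.92% of all genes with a mean of at least 1 RPKM were. The Gbp2 and Igtp promoters each held 1 ISRE match, shown in capitals.
Gbp2, chr3:142620594-142620623, plus strand: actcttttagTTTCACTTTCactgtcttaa
Igtp, chr11:58199512-58199541, plus strand: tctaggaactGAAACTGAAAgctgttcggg

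Parp9 and Dtx3l encode partners that modify histones, Parp14 encodes an ADP-ribosyltransferase, and Trim30a encodes a restraint on inflammatory signaling. Parp14 was lower, with 7.74 RPKM in NTB-GMP against 4.54 RPKM in 4T1-GMP, a log2 ratio of -0.76 (interval -0.92 to -0.62). Parp9 had 9.51 and 7.42 RPKM (-0.35, interval -0.54 to -0.17), and Trim30a had 16.8 and 13.7 RPKM (-0.29, interval -0.42 to -0.15). Dtx3l had 18.1 and 18.2 RPKM (0.01). Dtx3l and Parp9 are transcribed in opposite directions on chromosome 16 with overlapping exons, and reads in the overlap cannot be told apart unless strand was used.

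The remaining 6 ISGs have less well defined roles. Rtp4, a chaperone for surface receptors that also inhibits viral replication, had 1.499 RPKM from at least 24 reads in NTB-GMP against 0.297 RPKM from at least 14 reads in 4T1-GMP, a log2 ratio of -2.01 (interval -3.40 to -1.33). Ifi44 had 0.777 and 0.218 RPKM (log2 ratio -1.46, interval -2.79 to -0.89), from at least 23 and 19 reads. Lgals3bp, a secreted glycoprotein, had 28.1 and 18.01 RPKM (-0.64, interval -0.93 to -0.35), and Xaf1, a promoter of apoptosis, had 2.31 and 1.47 RPKM (-0.61, interval -1.11 to -0.17). Ifi27l2a had 0.556 and 0.302 RPKM and Ifi35 had 14.1 and 15.2 RPKM, both with intervals that included 0. Of these 6, 5 were lower in RPKM and 4 had intervals under 0, beside 48.6% and 24.3% of all genes above 0, respectively.

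Genes upstream of the ISGs were then examined from lists of ligands, receptors, kinases and STATs, IRFs, sensors and adaptors, and negative regulators. Of 21 interferon genes, 20 were listed at 0 in both libraries, and Ifnz had a recovered count of 1 read in each. The Ifna genes have similar sequences, so shared reads may have been dropped in counting, and a 0 does not show absence. The receptors for type I interferon were slightly lower, with 8.94 and 7.31 RPKM for Ifnar1 (log2 ratio -0.29, interval -0.42 to -0.15) and 26.8 and 23.9 RPKM for Ifnar2 (-0.17, interval -0.28 to -0.05). The receptor chain for interferon gamma Ifngr1 was higher, with 153 and 218 RPKM (0.52, interval 0.46 to 0.57), and Ifngr2 had 9.63 and 11.1 RPKM (0.20, interval -0.02 to 0.44). The 6 kinases and STATs had a median log2 ratio of -0.05, and none was 2-fold different. Jak1 had 38.9 and 35.3 RPKM (-0.14) and Tyk2 13.9 and 14.2 RPKM (0.03). Stat2 had 7.67 and 6.82 RPKM (-0.17, interval -0.35 to 0.02). At least 3 reads were found for 5 of 6 receptor genes in NTB-GMP and 6 in 4T1-GMP, the exception being Ifnlr1 with a recovered count of 1 read in NTB-GMP and at least 38 reads in 4T1-GMP. All 6 kinases and STATs passed that limit in both libraries.

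The IRFs, the transcription factors that act on the ISRE and related elements, were lower throughout. All 7 with a mean of at least 1 RPKM were lower in 4T1-GMP, beside 45.3% of all genes at that level, and 3 of them were at least 2-fold lower, beside 4.92%. Their median log2 ratio was -0.91. Irf9, the DNA-binding partner of STAT2, had 8.92 and 5.43 RPKM (-0.71, interval -1.04 to -0.38), and Irf7, an ISG that amplifies interferon production, had 1.64 and 0.824 RPKM (-0.91, interval -1.68 to -0.28). Irf1 had 16.5 and 13.8 RPKM (-0.25, interval -0.40 to -0.11), and Irf3 had 22.1 and 20.3 RPKM (-0.12, interval -0.27 to 0.03). Past 2-fold were Irf8, a driver of monocyte and dendritic fate, at 32.0 and 4.45 RPKM (-2.82, interval -3.00 to -2.68), Irf5 at 4.19 and 1.21 RPKM (-1.71, interval -2.22 to -1.36) and Irf2 at 11.5 and 5.36 RPKM (-1.08, interval -1.41 to -0.78).

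Of the 11 negative regulators with a mean of at least 1 RPKM, 6 were higher and 5 lower, near the 54.7% higher among all genes. Their median log2 ratio was 0.08, where that of all genes at that level was 0.05. Socs3, a feedback inhibitor induced by G-CSF and related cytokines, was the only one past 2-fold, where 3.25% of all genes were at least 2-fold higher. It had 0.216 RPKM from at least 1 read in NTB-GMP against 7.19 RPKM from at least 98 reads in 4T1-GMP. Its log2 ratio was 4.53 (interval 2.54 to 10.4). Socs1, the feedback inhibitor typical of interferon, had 0.587 and 0.647 RPKM. Trex1, which degrades cytosolic DNA, had 10.6 and 5.33 RPKM (-0.98). Of 14 sensors and adaptors with a mean of at least 1 RPKM, 8 were higher, near the same 54.7% of all genes. Myd88, the adaptor of most Toll-like receptors, was the only one of the 14 past 2-fold, beside the same 3.25%. Myd88 had 9.69 and 26.1 RPKM (1.42, interval 1.21 to 1.65). Among the 4 sparser genes of that list, the RNA sensors Tlr3 (0.863 and 0.146 RPKM, log2 ratio -1.97, interval -3.44 to -1.73) and Tlr8 (0.0933 and 0.591 RPKM, log2 ratio 1.84, interval 1.04 to 4.98) were past 2-fold in opposite directions. Of all genes under a mean of 1 RPKM, 16.5% were at least 2-fold lower and 8.91% at least 2-fold higher.

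**Figure D4:**
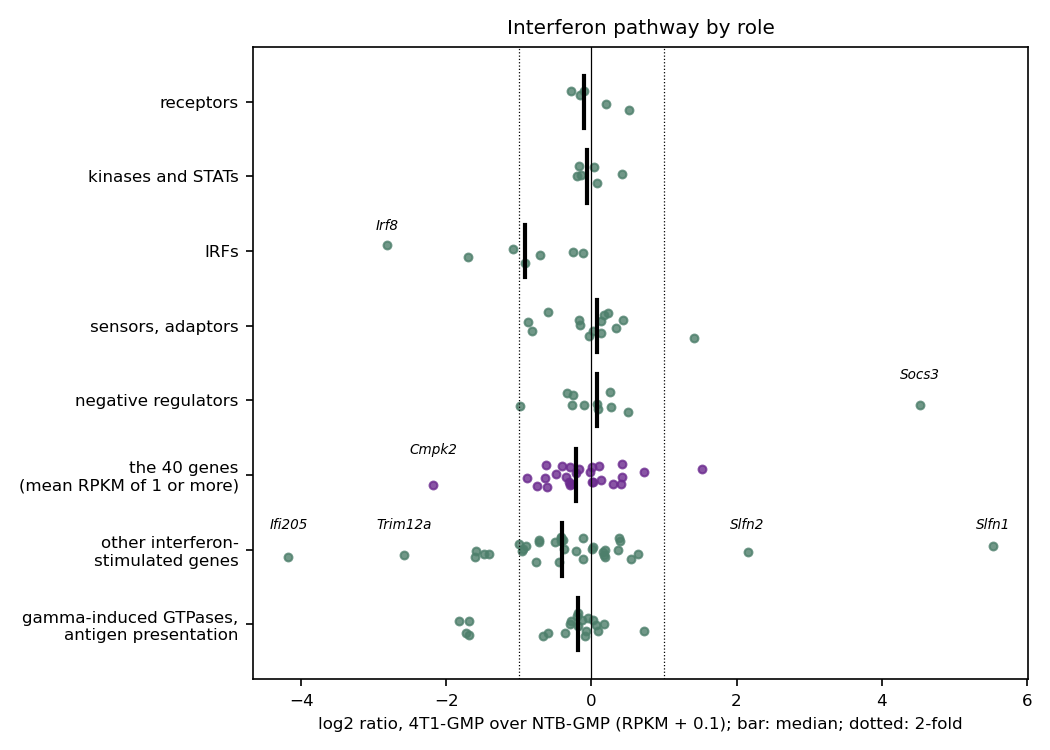
Log2 ratio of 4T1-GMP over NTB-GMP (RPKM + 0.1) for genes of the interferon pathway with a mean of at least 1 RPKM, by role, with 1 point per gene, the median of each list as a bar and dotted lines at 2-fold. The IRFs have a median of -0.91, while receptors (-0.10), kinases and STATs (-0.05) and the 27 of the 40 ISGs at that level (purple, -0.22) lie nearer 0.

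A wider list of 51 other ISGs, 36 of them with a mean of at least 1 RPKM, was taken next. Of the 36, 23 were lower and 13 higher, with a median log2 ratio of -0.40, where 45.3% of all genes were lower. At least 2-fold lower were 7, beside 4.92% of all genes, and at least 2-fold higher were 2, beside 3.25%. Of 13 sparser genes of the list, 4 were at least 2-fold lower and 3 at least 2-fold higher. Of all genes under a mean of 1 RPKM, these shares were 16.5% and 8.91%. The 7 were Ifi205 (4.32 and 0.145 RPKM, log2 ratio -4.18), Trim12a (-2.59), Ifi203 (-1.60), Epsti1 (-1.60), Slfn8 (-1.48), Trim30d (-1.41) and Ddx60 (-1.01), of which Ifi203 and Ifi205 belong to a family of DNA-binding proteins on chromosome 1. The 2 were Slfn1 (0.0529 RPKM from a recovered count of 1 read and 6.98 RPKM, log2 ratio 5.53, interval 4.56 to 12.4) and Slfn2 (2.24 and 10.3 RPKM, log2 ratio 2.15). Of 21 genes for gamma-induced GTPases and antigen presentation at that level, 16 were lower, beside the same 45.3%, and 5 higher, with a median of -0.18. At least 2-fold lower, beside 4.92% of all genes, were the 4 genes Tgtp2 (-1.83), Tgtp1 (-1.68), Gbp5 (-1.69) and H2-K1 (-1.73), and Tgtp1 and Tgtp2 are near-identical copies whose reads may have been split.

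Markers of GMPs and of other cells were compared last. GMP markers were abundant in both libraries, with Mpo at 5163 and 5625 RPKM, Elane at 1853 and 2935 RPKM and Kit at 78.5 and 49.1 RPKM, and none of the 12 GMP markers was at 0. Their levels differed in both directions. At least 2-fold higher in 4T1-GMP were 3 of the 12, beside 3.25% of all genes with a mean of at least 1 RPKM. These were Ms4a3 (479 and 1220 RPKM), Prtn3 (1399 and 3311 RPKM) and Ctsg (1388 and 2998 RPKM). At least 2-fold lower was 1, Cd34 (154 and 59.4 RPKM), beside 4.92%. The summed RPKM of 12 dendritic cell markers was 113 in NTB-GMP and 13.2 in 4T1-GMP, with Cd209a at 0 in both and Zbtb46 and Batf3 at 0 in 4T1-GMP. Only 5 of them had a mean of at least 1 RPKM, and these carried the sum. They were Cd74 (42.3 and 4.85 RPKM), H2-Ab1 (24.3 and 2.21 RPKM), H2-Aa (21.0 and 1.75 RPKM), Flt3 (12.6 and 2.34 RPKM) and H2-Eb1 (8.71 and 1.34 RPKM). Among the sparser markers, the intervals of Xcr1, Itgax and Batf3 included 0. The sum of 12 monocyte and macrophage markers was 206 and 124, none of them at 0. The sum of 12 markers of plasmacytoid dendritic cells, the main interferon producers, was 30.8 and 16.6. Nearly all of it came from Tcf4 (9.72 and 6.13 RPKM), Bcl11a (9.97 and 5.05 RPKM) and Runx2 (9.28 and 4.69 RPKM). Klk1, Pacsin1 and Cd300c were at 0 in both libraries, and the defining Siglech had 0.0820 and 0.0139 RPKM. Siglech, Ccr9, Ly6d and Spib had recovered counts of 2 reads or fewer in each library, so the sum says little about these cells. The sum of 12 neutrophil lineage markers was 127 and 555. All 12 were higher in 4T1-GMP, beside 54.7% of all genes with a mean of at least 1 RPKM, and Stfa2l1 was at 0 in NTB-GMP. Most of the sum came from the granule genes Ngp (49.4 and 147 RPKM), Camp (25.7 and 64.9 RPKM), Lcn2 (15.1 and 97.0 RPKM) and Ltf (11.1 and 42.0 RPKM). Ly6g had 0.426 and 4.30 RPKM, so the sum does not measure mature neutrophils. The 12 stem and early progenitor markers summed to 126 and 70.0, with 6 lower and 6 higher in 4T1-GMP, beside 48.6% lower of all genes above 0. Most of this sum came from Cd48 (64.3 and 46.3 RPKM), Gata2 (29.5 and 5.14 RPKM) and Meis1 (17.1 and 4.73 RPKM). The 6 basophil and mast cell markers summed to 443 and 185. The 6 B cell markers summed to 15.5 and 12.5, of which Cd79b alone had 14.7 and 12.4 RPKM. The 6 T and NK cell markers summed to 191 and 338, of which Nkg7 alone had 190.3 and 337.0 RPKM. The defining Cd3e was at 0 in NTB-GMP, and Cd3g was at 0 in both. The 7 erythroid markers summed to 7.43 and 1.22, with Hba-a1, Hbb-bs and Hbb-bt at 0 in both. The 5 mammary carcinoma markers summed to 18.3 and 10.1, mainly from Krt18 (12.8 and 8.90 RPKM) and Cdh1 (5.36 and 1.04 RPKM). Krt14 and Epcam were at 0 in both, and Krt8 had 0.0544 and 0.111 RPKM. The part of these cell types in the levels of ISGs and IRFs was not tested, and the group, the library and the depth cannot be told apart in this design.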

How the data were processed

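Bulk RNA-seq of sorted GMPs was available as 1 library per group. The deposited values are RPKM, reads per kilobase of gene scaled to library size by the authors, with 1 value per gene symbol and library. Per the labels, the submitters' processing notes name CASAVA 1.8.2, cutadapt 1.2.1, TopHat2 2.0.13, Picard 1.97, HTSeq 0.6.1, edgeR 3.12.1 and mm10, with no role or order. Gene lengths, strand and the treatment of shared reads are not given in the sources used here.

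Whole reads and library sizes were recovered from ratios of the RPKM, for 14833 of 14833 genes above 0, as the smallest whole counts that fit a whole gene length. Recovery, ratios and intervals were tested on simulated data. Ratios used a pseudocount of 0.1 RPKM and genes with a mean of at least 1 RPKM over both libraries, and called genes differed at least 2-fold. With 1 library per group no test was possible. The 40 genes, the other lists and the markers were chosen with earlier results of these data known. Named were all 40 ISGs, receptors, kinases, STATs and IRFs chosen by name and every listed gene past 2-fold with a mean of at least 1 RPKM; Irf3, Ifnlr1, Tlr3, Tlr8, Socs1, Trex1 and single close copies and markers were named after their values were seen. Alternatives were other pseudocounts, level filters, folds and scalings. Promoters were from RefSeq (GRCm38.p6) and positions from GENCODE M21 (GRCm38), the assembly that mm10 also names. Python 3.11.15, numpy 2.4.6, pandas 2.3.3, scipy 1.17.1 and matplotlib 3.10.9 were used. Rnf213, one of the listed genes, was not analysed here. Not every gene of the lists is reported by name here.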

Additional observations from a re-analysis of the deposited data

How the results depend on the processing

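The median log2 ratio of the ISGs tested stayed below that of all genes tested, between -0.37 and -0.01, under all 7 alternative pseudocounts, filters and scalings, with the value nearest 0 among genes with a mean of at least 5 RPKM. The share of ISGs higher in 4T1-GMP moved from 40.7% to 22.2% with library sizes without Rn45s, a shift built into that scaling. The count of ISGs at least 2-fold lower was 1 of 27 as reported. It became 9 of 40 with all genes above 0, beside 8.4% of all genes. With a mean of at least 5 RPKM it was 0 of 19 (2.27% of all genes). Without Rn45s in the library sizes it was 2 of 27, near the 6.75% of all genes, and at 1.5-fold 6 of 27 (11.6%). Further alternatives were chosen after seeing the data. With both 2-fold and an interval under 0 over all genes above 0, the count was 9 of 40 (6.78% of all genes). For genes from 0.1 to under 1 RPKM it was 7 of 11 (27.5%). The count at least 2-fold higher was 2 of 27 at 1.5-fold, beside 9.8% of all genes. For genes from 0.1 to under 1 RPKM it was 0 of 11, beside 14.4%. The counts differ with the filter because 13 of the 40 ISGs lie under 1 RPKM. Of 200 ratios of single ISGs under alternatives, 182 stayed within the counting interval. Among ISGs whose interval did not include 0, only Eif2ak2 changed sign, to -0.037 without Rn45s. Of those whose interval included 0, Ifi35, Herc6, Dtx3l and Ifi47 were below 0 without Rn45s and Ifih1 was above 0 after quantile normalization, and ISGs higher of 40 went from 14 to 9 without Rn45s. The median of the kinases and STATs moved to -0.22 without Rn45s. Of 98 counts of 2-fold genes in the other lists, 86 stayed within 1.5 times. No paired analysis was possible because the groups had a single library each, so that leaving out a replicate was not possible either. NTB-GMP, sequenced less deeply, limits what can be said of genes under 1 RPKM.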

Other observations

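Genes of MHC class I presentation, which interferons induce, differed from each other. H2-K1 had 127 RPKM in NTB-GMP against 38.3 RPKM in 4T1-GMP, a log2 ratio of -1.73 (interval -1.82 to -1.64), whereas the class I gene H2-D1 had 83.6 and 89.4 RPKM (0.10, interval -0.02 to 0.22). The class I light chain B2m had 580 and 546 RPKM (-0.09) and the immunoproteasome subunit Psmb8 had 128 and 129.5 RPKM (0.02). H2-T23 (-0.60), Tap2 (-0.67) and H2-Q4 (-0.37) were lower with intervals under 0. These genes were singled out after their values were seen. Class I genes resemble each other and differ between H-2 backgrounds, so reads may have been split or dropped. The part of this in the values of H2-K1 was not tested.

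The Schlafen genes, a family of growth regulators partly induced by interferon, differed in both directions. Slfn1 had 0.0529 RPKM from a recovered count of 1 read in NTB-GMP against 6.98 RPKM from at least 389 reads in 4T1-GMP (interval of the log2 ratio 4.56 to 12.4), and Slfn2 had 2.24 and 10.3 RPKM (2.15, interval 1.72 to 2.72). Slfn8 had 7.004 and 2.45 RPKM (-1.48, interval -1.75 to -1.28), and Slfn5 (0.64) and Slfn9 (0.36) had smaller log2 ratios.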
